A study of Mus musculus with 4 samples.

Results

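The genes described here encode receptors for norepinephrine and the proteins that switch such receptors off: the adrenergic receptor genes Adra1b, Adra2a, Adra2c and Adrb1, the beta-arrestin genes Arrb1 and Arrb2, and the receptor kinase genes Grk5 and Grk6. They were chosen by name, and each of the 8 was found once among the 52636 genes of the deposited count table. RNA-seq had been run on Myc-CaP cells, a line grown from a prostate tumour of a Hi-Myc transgenic mouse (FVB strain), whose transgene drives MYC from a prostate-specific promoter. All cultures carried that transgene and a stably expressed short hairpin RNA. The 4 groups were shFAK cells, whose hairpins target focal adhesion kinase (gene Ptk2), in norepinephrine at 10 µM for 24 h; shFAK cells in vehicle; shNC cells, which carry a negative control hairpin, in norepinephrine; and shNC cells in vehicle. Each group was 1 library. The sources used here do not say whether each line was a clone or a pool.

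Norepinephrine acts through receptors that signal by different G proteins. Alpha-1 receptors couple mainly to Gq and phospholipase C, alpha-2 receptors to Gi, which lowers cAMP, and beta receptors to Gs, which raises it. An agonist-bound receptor is phosphorylated by a G protein-coupled receptor kinase, and a beta-arrestin then binds, uncouples the G protein and links the receptor to clathrin and the AP2 adaptor for endocytosis. Beta-arrestins also scaffold kinases such as Src and the ERK cascade.

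The 4 libraries held 23410486 to 29948640 counts. Ptk2, the targeted gene, had 1248 counts in shFAK norepinephrine and 1294 in shFAK vehicle, against 3158 in shNC norepinephrine and 3547 in shNC vehicle. Of 8 prostate epithelial markers, 4 passed the low-count filter (Foxa1, Hoxb13 and Krt8 among them), a level in CPM (counts scaled to library size) of at least 1 in at least 1 library. The other 4 had at most 15 counts in any library. Krt8 had 2.00 and 1.89 CPM in shFAK norepinephrine and vehicle, against 6.20 and 5.17 CPM in shNC norepinephrine and vehicle. Of the 4 that passed, the additive model described below called Krt8 lower in shFAK and 1 other marker higher. No immune or endothelial marker passed, and 1 of 4 neuronal markers did (Rbfox3). Of 6 fibroblast markers, 2 passed (Pdgfra and Col1a1). The summed fibroblast level was 13.2 to 13.5 CPM in the shFAK libraries and 7.59 to 9.74 CPM in the shNC libraries, with Col3a1, Dcn and Lum at 0 counts throughout. What part these marker differences have in the results below was not tested. In cultures measured as a whole, fewer cells of a kind and less RNA per cell cannot be told apart.

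Of the 8 genes, 6 passed the filter, and Adra2c and Adrb1 did not. The genes differ widely in depth. A longer gene collects more reads, so levels of different genes are set side by side only as TPM (counts scaled to both gene length and library size), computed from the counts and the deposited gene lengths, and only within a library. In the shFAK norepinephrine library these levels were 85.3 TPM for Grk6, 34.5 for Arrb2, 26.4 for Arrb1, 14.4 for Grk5, 13.4 for Adra1b, 1.10 for Adra2a, 0.822 for Adra2c and 0.148 for Adrb1. The order of the 6 genes that passed the filter was the same in each of the other 3 libraries, except that Arrb1 and Grk5 stood within a fraction of a TPM of each other in shNC norepinephrine, at 11.95 and 11.98 TPM. The Grk5 level rests on a deposited length of 3165 bases, where GENCODE M21 merges 7055 bases of exon, and a longer length would lower its TPM.

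**Figure D1:**
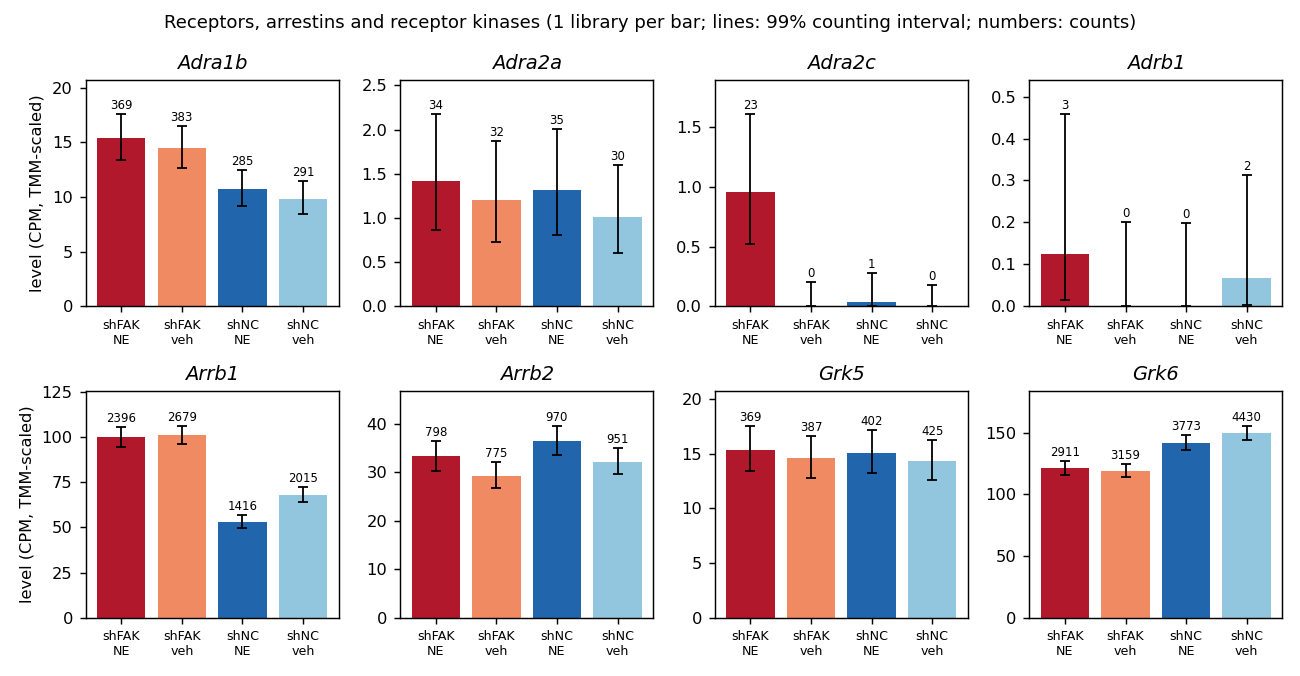
Level of each of the 8 genes in the 4 libraries, as CPM after TMM scaling (vertical axes start at 0 and differ between panels); lines are 99% counting intervals and the number over each bar is the deposited count. Arrb1 and Adra1b stand higher in the shFAK libraries, Grk6 stands lower there, and Adra2c has 23 counts in shFAK norepinephrine and at most 1 elsewhere.

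Because each group was a single library, a ratio between 2 libraries is given with an exact 99% interval from the counts, which covers counting error alone and carries no p-value. A gene met the size rule for such a pair when it differed at least 2-fold and the interval left out 0 on the log2 scale. None of the 6 genes met it for shFAK over shNC in norepinephrine, where 3.25% of all 12351 genes that passed the filter did, nor in vehicle, where 1.88% did. None met it for norepinephrine over vehicle in shFAK, where 0.874% of all genes did, or in shNC, where 0.858% did. None met it for the difference between the norepinephrine responses of the 2 lines, where 0.785% did. At any size, the interval left out 0 for 3 of the 6 genes for shFAK over shNC in norepinephrine (53.5% of all genes) and for the same 3 in vehicle (41.9%), namely Adra1b, Arrb1 and Grk6. For norepinephrine over vehicle it left out 0 for none of the 6 in shFAK (22.7% of all genes) and for Arrb1 and Arrb2 in shNC (44.5%). An additive model of hairpin and treatment over the 4 libraries called 3 of the 6 genes for the hairpin: Adra1b and Arrb1 rose in shFAK and Grk6 fell (edgeR quasi-likelihood test, Benjamini-Hochberg adjusted p under 0.05). It called 35.7% of all genes for the hairpin, 19.5% higher and 16.2% lower, and the 3 of 6 called here stand against that background. It called none of the 6 for norepinephrine, where it called 12.3% of all genes. The DESeq2 Wald test on the same design called 1 of the 6 for the hairpin, Arrb1. It also called fewer of all genes for the hairpin than edgeR did, with the counts given at the end. With 4 libraries and 3 coefficients the model keeps 1 residual degree of freedom. Its error is pooled over genes from how far the libraries stray from additivity, so its p-values say nothing of variation between cultures.

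Among the receptors described here, Adra1b had the most counts in every library and rose in shFAK cells. Adra1b encodes the alpha-1B receptor and lies on mm10 chromosome 11, bases 43774606 to 43901210, minus strand, with up to 5 exons. It had 369 counts in shFAK norepinephrine and 383 in shFAK vehicle, against 285 in shNC norepinephrine and 291 in shNC vehicle, levels of 15.4 and 14.5 CPM against 10.7 and 9.84 CPM. Each shFAK library was above each shNC library. The shFAK level was 1.43 times that of shNC in norepinephrine (log2 ratio 0.52, 99% counting interval 0.23 to 0.82) and 1.47 times in vehicle (0.55, 0.26 to 0.85). In the additive model it rose by 0.54 ± 0.11 on the log2 scale (SE; edgeR quasi-likelihood test, Benjamini-Hochberg adjusted p = 1.74e-05); the DESeq2 Wald test gave 0.54 with an adjusted p of 0.0690 and did not call it. The norepinephrine ratios of Adra1b were close to 0, at log2 0.09 (-0.19 to 0.36) in shFAK and 0.12 (-0.19 to 0.44) in shNC. Neither interval left out 0.

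The RefSeq promoter table (GRCm38.p6) had entries for 6 of the 8 genes, with none for Arrb1 and Arrb2. The 250 bases before both annotated starts of Adra1b, the receptor gene called for the hairpin, and before the first of 3 annotated starts of Grk6, called the other way, are shown to give the sequence beside the expression. None of these windows overlaps a GENCODE M21 exon of its own gene, and exons of other genes were not searched there. Capitals mark the matches to 5 motifs searched on both strands: the cAMP response element half-site TGACG, the AP-1 site TGANTCA, the E-box CACGTG, the GC box GGGCGG and the TEAD site GGAATG. The matches do not overlap one another.
Adra1b outer start, chr11:43901238-43901487, minus strand: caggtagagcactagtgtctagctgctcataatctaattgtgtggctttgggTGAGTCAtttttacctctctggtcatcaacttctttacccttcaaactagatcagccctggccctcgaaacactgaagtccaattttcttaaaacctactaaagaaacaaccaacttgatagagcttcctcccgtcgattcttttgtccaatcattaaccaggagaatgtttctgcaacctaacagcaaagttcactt
Adra1b inner start, chr11:43836490-43836739, minus strand: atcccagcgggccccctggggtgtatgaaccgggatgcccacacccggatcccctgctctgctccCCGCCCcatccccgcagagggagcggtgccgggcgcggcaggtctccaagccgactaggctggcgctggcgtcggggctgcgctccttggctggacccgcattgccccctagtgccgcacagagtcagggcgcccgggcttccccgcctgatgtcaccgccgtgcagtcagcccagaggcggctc
Grk6 first start, chr13:55444822-55445071, plus strand: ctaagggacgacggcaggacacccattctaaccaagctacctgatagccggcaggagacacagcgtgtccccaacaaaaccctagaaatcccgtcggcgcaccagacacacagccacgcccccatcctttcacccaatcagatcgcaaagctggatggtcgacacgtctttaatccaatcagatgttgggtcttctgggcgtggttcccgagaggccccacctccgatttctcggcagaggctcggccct
The outer Adra1b window had a GC content of 41.6% and 1 AP-1 match, a motif held by 6.75% of 32817 promoter windows of the same length. The inner window, 64721 bases from the deposited gene start, had a GC content of 72.8% and 1 GC box, held by 32.7% of windows. The Grk6 window had a GC content of 58.0% and none of the 5 motifs. Those of the other Grk6 starts, 257 and 259 bases downstream, overlap each other almost wholly, with 203 and 201 bases in exon, and are not shown; each held 4 GC boxes. Gene-level counts do not say which start was used.

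Adra2a, an alpha-2 receptor gene, was close to the 1 CPM filter in all libraries, and no difference was detectable at this depth. It lies on chromosome 19, bases 54045182 to 54048982, plus strand. It had 34 counts in shFAK norepinephrine and 32 in shFAK vehicle, against 35 in shNC norepinephrine and 30 in shNC vehicle, or 1.01 to 1.42 CPM. The shFAK over shNC log2 ratio was 0.10 (-0.83 to 1.05) in norepinephrine and 0.24 (-0.74 to 1.25) in vehicle. These intervals reach 2-fold on the upper side, so the data do not bound a change of that size. The additive model gave a hairpin change of 0.18 ± 0.37 (SE; edgeR quasi-likelihood test, Benjamini-Hochberg adjusted p = 0.745).

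Adra2c, the other alpha-2 receptor gene of the 8, had more than 1 count in 1 library only. The gene, a single exon on chromosome 5, bases 35278319 to 35281763, plus strand, had 23 counts in shFAK norepinephrine and 0 in shFAK vehicle, against 1 in shNC norepinephrine and 0 in shNC vehicle. After TMM scaling it stood at 0.959 CPM in its highest library, while Adra2a, just inside the filter, reached 1.42 CPM. The filter of 1 CPM was set on library size before that scaling, and Adra2c fell just short of it. Norepinephrine was at least 8.47-fold higher than vehicle in shFAK, taking 3 counts as the floor for the vehicle library, and the lower 99% counting limit of that ratio was 4.26. The shFAK over shNC ratio in norepinephrine was 25.5, with a 99% counting interval of 2.98 to 5314. Without the filter on low counts Adra2c met the size rule in both of these pairs.

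The shFAK norepinephrine library held many other genes of this kind. In that library 119 genes had at least 8 counts and at most 2 in each other library, against 4 such genes in shFAK vehicle, 7 in shNC norepinephrine and 9 in shNC vehicle. Adra2c stood second among the 119 by count, beside the transcription factor gene Pou3f1, also at 23. Of the 119, 111 were protein-coding, and 11 of these (9.91%) had a single exon, as Adra2c does, against 6.28% of all protein-coding genes. The library also had a count for 23121 genes, against 20442 to 21678 in the other 3. The part of this excess in the Adra2c counts was not tested.

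Adrb1 and 4 receptor genes outside the 8 gave too few counts to compare. Adrb1, the beta-1 receptor gene (chromosome 19, bases 56722372 to 56724862, plus strand), had 3 counts in shFAK norepinephrine and 0 in shFAK vehicle, against 0 in shNC norepinephrine and 2 in shNC vehicle. All are at or under the floor of 3 counts, so no fold is given. No library held more than 7 counts of Adra1a, Adra1d, Adra2b or Adrb3. Summed with Adrb1 but without Adra2c, these 5 genes had 23 counts in shFAK norepinephrine and 3 in shFAK vehicle, against 7 in shNC norepinephrine and 9 in shNC vehicle. The sum was highest in the same library that held the excess of low-count genes. A count of 0 there allows up to 0.101 to 0.125 CPM, by the floor of 3 counts in each library, and the 99% counting intervals in the plot of levels end higher, at 0.179 to 0.221 CPM.

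The beta-arrestin genes moved apart between the lines: Arrb1 rose in shFAK cells and Arrb2 was not called. Their coding sequences are alike, with 73.6% identity over 1203 aligned bases between the longest coding sequences in GENCODE M21. The coding starts are shown to let the paralogs be told apart, with capitals at each base that differs or has no partner in the other gene (22 aligned positions, 3 of them with no base in Arrb1).
Arrb1, chromosome 7, plus strand, from coding start 99535779: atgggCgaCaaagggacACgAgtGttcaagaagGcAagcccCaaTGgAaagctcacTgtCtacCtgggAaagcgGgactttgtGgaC
Arrb2, chromosome 11, plus strand, from coding start 70432731: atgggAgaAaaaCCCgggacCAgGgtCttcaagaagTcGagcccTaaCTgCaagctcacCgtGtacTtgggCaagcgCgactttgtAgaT
The longest stretch that both coding sequences share letter for letter marks the longest coding read that could match both exactly. It is 18 bases long and begins at coding base 1053 of Arrb1 and 1032 of Arrb2: cctaatgcaccccaagcc
No transcript of another annotated gene matched them at 95% identity or more across 100 or more bases.

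Arrb1 and Adra1b were the genes of the 8 called higher in shFAK. It encodes beta-arrestin 1 and lies on chromosome 7, bases 99535466 to 99606771, plus strand. It had 2396 counts in shFAK norepinephrine and 2679 in shFAK vehicle, against 1416 in shNC norepinephrine and 2015 in shNC vehicle, or 99.9 and 101 CPM against 53.2 and 68.1 CPM. The shFAK libraries lay close together, above both shNC libraries, and shNC norepinephrine was the lowest of the 4. The shFAK level was 1.88 times that of shNC in norepinephrine (log2 0.91, 99% counting interval 0.78 to 1.04) and 1.48 times in vehicle (0.57, 0.46 to 0.68). The additive model gave a rise of 0.74 ± 0.09 (SE; edgeR quasi-likelihood test, Benjamini-Hochberg adjusted p = 3.03e-14), and the DESeq2 Wald test also called it (adjusted p = 6.49e-07).

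The Arrb1 response to norepinephrine differed between the lines by more than counting error. Norepinephrine over vehicle gave a log2 ratio of -0.02 (-0.12 to 0.09) in shFAK and -0.36 (-0.49 to -0.23) in shNC. The difference of these responses, shFAK minus shNC, was 0.34 (0.17 to 0.51), and the intervals of the other 5 genes included 0. Across all genes, 23.0% had a difference whose interval left out 0. An additive model assumes that this difference is 0, so its Arrb1 p-value holds only on that assumption. The additive norepinephrine change was -0.18 with an adjusted p of 0.170 (edgeR quasi-likelihood test, Benjamini-Hochberg) and was not called.

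Arrb1 is the longest of the 8 genes by deposited length, 11175 bases, and log2 ratios in these libraries moved with gene length. A smooth trend fitted over all genes that passed the filter was 0.35 at the length of Arrb1 for shFAK over shNC in norepinephrine, 0.17 in vehicle, and -0.25 for norepinephrine over vehicle in shNC. With the trend taken off, the shFAK over shNC ratio was 0.56 (0.44 to 0.69) in norepinephrine and 0.40 (0.29 to 0.51) in vehicle, against 0.49 and 0.52 for Adra1b, and Arrb1 was still called for the hairpin (0.48 ± 0.07 SE, edgeR quasi-likelihood adjusted p = 4.34e-05). The shNC response fell within counting error, at -0.11 (-0.24 to 0.02), and so did the difference of responses, at 0.16 (-0.01 to 0.33). The shFAK over shNC difference in Arrb1 exceeded counting error with and without the trend. The difference in its response to norepinephrine exceeded it only before the trend was taken off. Afterwards its interval, from -0.01 to 0.33, only just included no change, so a smaller difference in response remains possible. The intervals do not cover error in the fitted trend.

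**Figure D2:**
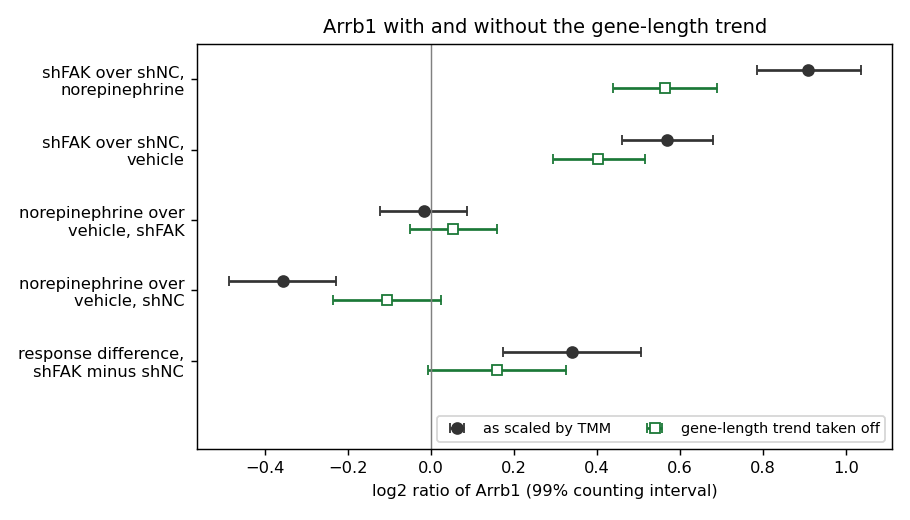
Log2 ratios of Arrb1 in the 4 pairs of libraries and the difference of the norepinephrine responses (horizontal axis), as scaled by TMM (filled circles) and with the trend of each ratio with gene length taken off (open squares); lines are 99% counting intervals. Both shFAK over shNC ratios stay above 0, at 0.56 and 0.40 without the trend, while the shNC norepinephrine ratio moves to -0.11 with an interval that includes 0.

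Arrb2, which encodes beta-arrestin 2, varied little. It lies on chromosome 11, bases 70432635 to 70440828, plus strand, and had 798 counts in shFAK norepinephrine and 775 in shFAK vehicle, against 970 in shNC norepinephrine and 951 in shNC vehicle, or 33.3 and 29.3 CPM against 36.4 and 32.2 CPM. The lines overlapped, and within each line the norepinephrine library was the higher. The shFAK over shNC log2 ratio was -0.13 (-0.31 to 0.05) in norepinephrine and -0.14 (-0.32 to 0.04) in vehicle. Norepinephrine over vehicle gave 0.19 (-0.004 to 0.38) in shFAK and 0.18 (0.01 to 0.35) in shNC. With the length trend taken off these were 0.13 (-0.06 to 0.32) in shFAK and 0.10 (-0.07 to 0.27) in shNC, and neither interval left out 0. The additive model did not call it for norepinephrine (0.18, edgeR quasi-likelihood adjusted p = 0.201) or for the hairpin (-0.13, adjusted p = 0.278).

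As a share of beta-arrestin counts per base of gene length, Arrb1 made up 43.3% (99% Clopper-Pearson interval 40.8% to 46.0%) in shFAK norepinephrine and 46.8% (44.2% to 49.5%) in shFAK vehicle, against 27.1% (25.0% to 29.3%) in shNC norepinephrine and 35.0% (32.8% to 37.4%) in shNC vehicle. The shFAK shares were above both shNC shares, and Arrb2 was the larger part in every library. The ratio of Arrb1 to Arrb2 does not depend on how libraries are scaled. Its log2 odds were higher in shFAK by 1.04 (0.82 to 1.26) in norepinephrine and by 0.71 (0.49 to 0.92) in vehicle. Norepinephrine over vehicle gave -0.20 (-0.42 to 0.01) in shFAK and -0.54 (-0.75 to -0.32) in shNC. With the longest GENCODE M21 transcript of each gene as its length in place of the merged exons, the shares were 43.7%, 47.2%, 27.4% and 35.4% in the same order of libraries. The ratio does not take off the length trend, which differs between these genes of 11175 and 2845 bases.

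**Figure D3:**
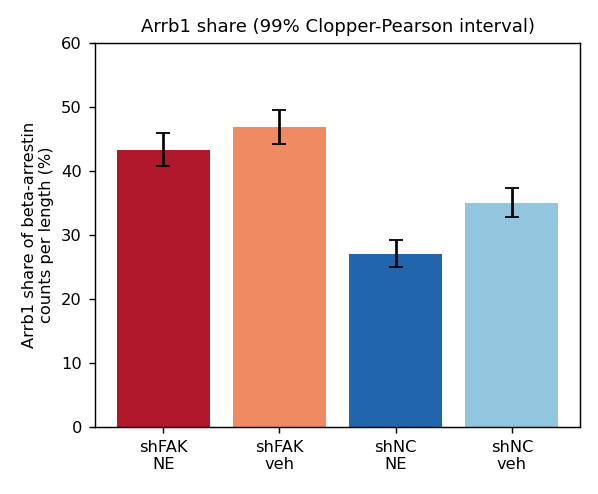
Arrb1 as a percentage of the summed beta-arrestin counts per base of gene length in each library (vertical axis from 0); lines are 99% Clopper-Pearson intervals, which cover counting error only. The shFAK bars are at 43.3% and 46.8%, above the shNC bars at 27.1% and 35.0%.

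Grk6, a receptor kinase gene with broad tissue expression, fell in shFAK cells. It lies on chromosome 13, bases 55445072 to 55460927, plus strand. It had 2911 counts in shFAK norepinephrine and 3159 in shFAK vehicle, against 3773 in shNC norepinephrine and 4430 in shNC vehicle, or 121 and 119 CPM against 142 and 150 CPM. Both shFAK libraries were below both shNC libraries. The shFAK level was 85.6% of that of shNC in norepinephrine (log2 -0.22, 99% counting interval -0.32 to -0.13) and 79.6% in vehicle (-0.33, -0.42 to -0.24). In the additive model it fell by 0.28 ± 0.09 on the log2 scale (SE; edgeR quasi-likelihood test, Benjamini-Hochberg adjusted p = 0.00707).

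The Grk6 call is small against the choice of scale. With library size alone in place of TMM its change was -0.21 with an adjusted p of 0.0574 (edgeR quasi-likelihood), and the DESeq2 Wald test gave -0.28 with an adjusted p of 0.0550, neither past the threshold. As TPM, the Grk6 level was 85.3 in shFAK norepinephrine and 84.7 in shNC norepinephrine, a log2 ratio of 0.01 in place of -0.22, on a scale where the median of all genes stood at 0.26 for that pair and at 0.12 for the vehicle pair. With the length trend taken off the fall was 0.34 (adjusted p = 0.000745). Norepinephrine over vehicle gave 0.03 (-0.07 to 0.12) in shFAK and -0.08 (-0.16 to 0.003) in shNC.

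Grk5, the other receptor kinase gene of the 8, was the steadiest. It lies on chromosome 19, bases 60889749 to 61092553, plus strand, and had 369 counts in shFAK norepinephrine and 387 in shFAK vehicle, against 402 in shNC norepinephrine and 425 in shNC vehicle, or 15.4 and 14.6 CPM against 15.1 and 14.4 CPM. Its highest level was 1.07 times its lowest. The shFAK over shNC log2 ratio was 0.03 (-0.25 to 0.30) in norepinephrine and 0.02 (-0.24 to 0.29) in vehicle, and norepinephrine over vehicle was 0.07 in both lines. The widest of the 4 intervals, for norepinephrine over vehicle in shFAK, ran from -0.20 to 0.35. The only near-identical copy found for any of the 8 genes was a 277-base match of Grk5 with Gm16284, which had 0 counts. Grk5 and Grk6 share 69.6% of 1759 aligned coding bases.

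The other kinases of this family put Grk5 and Grk6 in place. Grk2, the kinase that G protein beta-gamma subunits bring to the membrane, had 3114 counts in shFAK norepinephrine and 3461 in shFAK vehicle, against 3862 in shNC norepinephrine and 4305 in shNC vehicle. Its hairpin change of -0.16 was not called (edgeR quasi-likelihood adjusted p = 0.150), and it was called lower with the length trend taken off. Grk4 had 162 to 190 counts per library and was not called for either term. Grk3, Grk1 and the visual arrestin genes Sag and Arr3 had at most 5 counts in any library. Of the summed receptor kinase TPM in a library, Grk2 made up 44.0% to 46.0%, Grk6 44.7% to 48.2%, Grk5 6.14% to 7.56% and Grk4 1.69% to 2.39%.

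**Figure D4:**
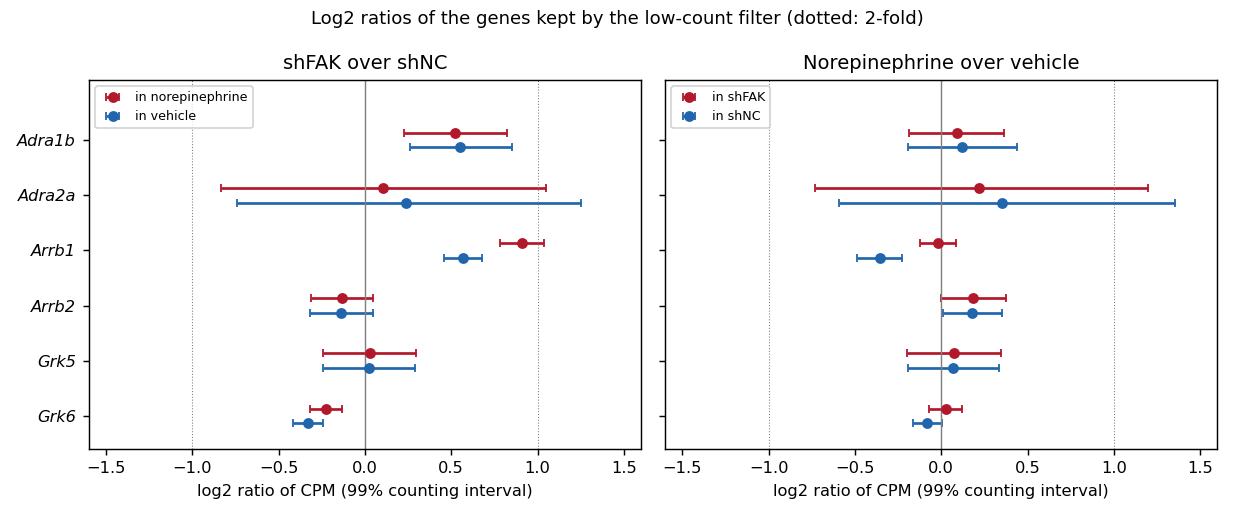
Log2 ratios of the 6 genes that passed the low-count filter, for shFAK over shNC (left) and norepinephrine over vehicle (right); points are single pairs of libraries, lines are 99% counting intervals and dotted lines mark 2-fold. Adra1b and Arrb1 lie right of 0 and Grk6 left of 0 in both treatments, and the shNC norepinephrine ratio of Arrb1, at -0.36, is the only ratio in the right panel whose interval lies wholly below 0.

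The genes with the most similar course over the 4 libraries were found by the Euclidean distance between centred log2 CPM, among 9383 protein-coding genes with a mean of at least 5 CPM (9384 for Adra2a). Adra1b was nearest to Fam43a (distance 0.022), Fam234a and Tor3a, where the median gene lay at 0.581. Arrb1 was nearest to Slc5a3, a myo-inositol transporter gene (0.037), Bace1, the beta-secretase gene (0.039), and Etl4 (0.052), with a median of 0.788. Grk6 was nearest to Prmt5, an arginine methyltransferase gene (0.019), Msln and Prim1, with a median of 0.356. Arrb2 was nearest to Zbtb8os, Ybx1 and Pak4, Grk5 to Srebf1, Vstm5 and Dgat1, and Adra2a to Msrb2, Soat2 and Ufsp1. With 4 points per gene, many genes lie near any pattern.

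Other genes that act on G protein-coupled receptors were taken from lists and described by the additive model, whose hairpin term called 19.5% of all genes higher and 16.2% lower, and whose norepinephrine term called 5.04% higher and 7.29% lower. RGS proteins speed the return of G protein alpha subunits to their inactive state. Of 21 genes, 6 passed the filter; 4 of these rose in shFAK (Rgs2, Rgs9, Rgs11 and Rgs12) and none fell, with a median log2 change of 0.41 against 0.01 for all genes. Rgs11 had 7.88 CPM in shFAK norepinephrine and 6.23 in shFAK vehicle, against 3.42 in shNC norepinephrine and 3.58 in shNC vehicle, a change of 1.00 ± 0.17 (SE; edgeR quasi-likelihood adjusted p = 5.26e-08). Rgs2, which acts mainly on Gq, had 308 and 301 CPM in shFAK norepinephrine and vehicle, against 251 and 235 CPM in shNC norepinephrine and vehicle. The DESeq2 Wald test called Rgs2 and Rgs11, and 3 remained called with the length trend taken off (Rgs2, Rgs11 and Rgs12).

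Of 19 clathrin endocytosis genes 17 passed the filter, and the hairpin term called 2 higher and 5 lower, with a median of 0.04. Ap2a1, which encodes a large subunit of the AP2 adaptor, fell by 0.56 ± 0.09 (SE; edgeR quasi-likelihood adjusted p = 8.26e-09). It had 106 and 99.7 CPM in shFAK norepinephrine and vehicle, against 148 and 155 CPM in shNC norepinephrine and vehicle. The clathrin light chain genes Clta and Cltb, the AP2 subunit gene Ap2s1 and Bin1 also fell, and the heavy chain gene Cltc and the dynamin gene Dnm1 rose. Dnm1 had 54 and 35 counts in shFAK norepinephrine and vehicle, against 24 and 20 in shNC norepinephrine and vehicle. For norepinephrine, Cltb rose by 0.25, and Cltc and Dnm3 fell by 0.37 and 0.46. With the length trend taken off, Ap2a1, Cltb and Bin1 were still called lower and Dnm1 higher for the hairpin, Clta, Ap2s1 and Cltc lost their call, Dnm2 and Dnm3 were called lower, and the median was -0.12; for norepinephrine Dnm3 lost its call. The DESeq2 Wald test called Cltc higher and Ap2a1, Cltb and Bin1 lower for the hairpin, and Cltc lower for norepinephrine.

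Of 23 recycling and degradation genes all passed the filter, and 6 rose in shFAK and none fell, with a median of 0.12. Usp33, a deubiquitinase that acts on beta-arrestin and the beta-2 receptor in human cells, rose by 0.45 for the hairpin (edgeR quasi-likelihood adjusted p = 3.71e-05) and fell by 0.39 for norepinephrine (adjusted p = 0.00195). The endosomal sorting genes Stam, Stam2 and Snx27 likewise rose for the hairpin and fell for norepinephrine. With the length trend taken off, Usp33 and Slc9a3r2 were still called for the hairpin, none of these 4 genes was called for norepinephrine, and the list had 3 higher and 2 lower, with a median of 0.03. The DESeq2 Wald test called 1 gene of the list for the hairpin, Usp33, and none for norepinephrine. Of 9 arrestin-scaffolded kinase genes that passed the filter, Map3k5 (0.55) and Gsk3b (0.38) rose in shFAK and Map2k2 fell by 0.43, and Map2k2 rose by 0.25 for norepinephrine. With the length trend taken off, Gsk3b lost its hairpin call and Src and Akt1 were called lower; the DESeq2 Wald test called Map3k5, Gsk3b and Map2k2 for the hairpin and none of the 9 for norepinephrine. Of 5 alpha-arrestin genes, 1 was called, Txnip, which rose by 0.33 (edgeR quasi-likelihood adjusted p = 0.00203) and was not called by the DESeq2 Wald test.

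**Figure D5:**
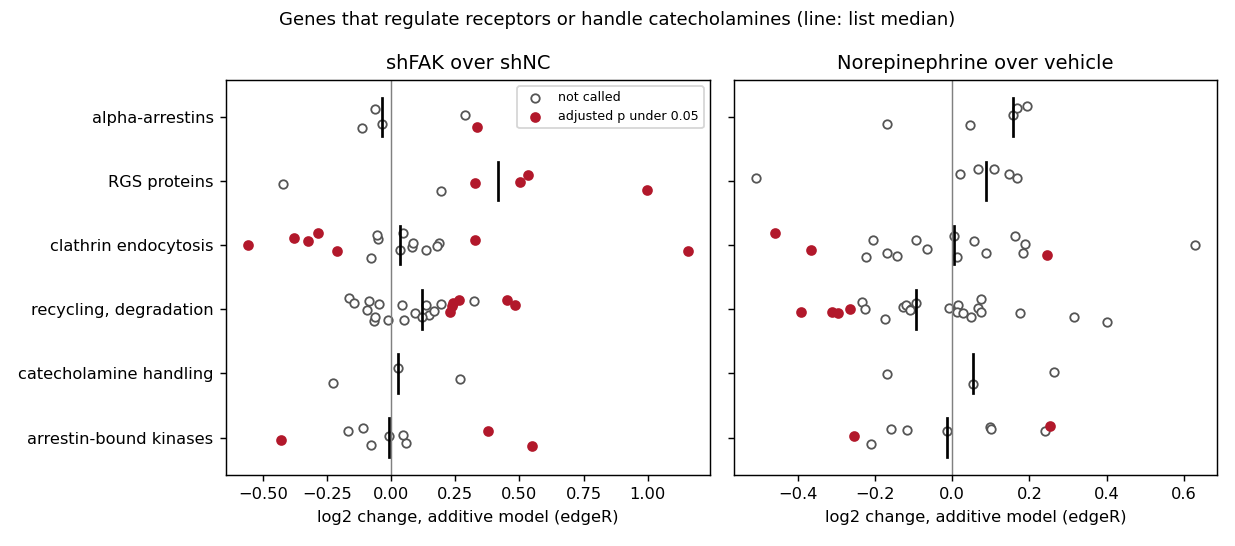
Log2 change of each gene that passed the filter in 6 lists of receptor-regulating or catecholamine-handling genes, from the additive edgeR model, for shFAK over shNC (left) and norepinephrine over vehicle (right); filled points have a Benjamini-Hochberg adjusted p under 0.05 and black lines are list medians. The RGS median for the hairpin is 0.41, and the medians of the other 5 lists lie within 0.12 of 0 in that panel.

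Most genes that make, take up or break down catecholamines were not detected. Of 15, 3 passed the filter, among them Slc18a2, the vesicular monoamine transporter gene, and Rnls. None of the 3 was called for either term. The norepinephrine transporter gene Slc6a2, the monoamine oxidase genes Maoa and Maob, and the synthesis genes Th and Dbh had at most 2 counts in any library.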

How the data were processed

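The deposited table gives unnormalized counts for 52636 genes in 4 RNA-seq libraries, beside each gene's coordinates, biotype and length. The submitters' processing notes name HISAT2 2.0.5 and featureCounts 1.5.0-p3 with build mm10. How featureCounts treated strand and multi-mapping reads, and with which annotation release, is not given in the sources used here, and the NEBNext Ultra kit named in the labels' protocols does not mark strand. An overlapping exon was found for Arrb2 alone (64 bases with Mir7115, at 0 counts). Columns were matched to samples by title, and 0 per-sample columns were left unused.

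From the deposited counts, CPM were computed with TMM effective library sizes (edgeR 4.0.16, R 4.3.3), and TPM with the deposited lengths. Genes at 1 CPM or more in at least 1 library were kept (12351), with CPM for this filter taken on library size before TMM scaling. Ratios between 2 libraries used a prior count of 2 and exact 99% Clopper-Pearson intervals; differences of ratios used a normal approximation. Reads carry no molecular identifiers, so intervals and floors cover counting error only. The additive model used glmQLFit with Benjamini-Hochberg adjustment over all kept genes; a gene's own departure from additivity had no weight in it (infinite prior degrees of freedom). Its p-values hold only if the norepinephrine response is the same in both lines. Scripts were tested on simulated data with 200 changed genes. Gene copies were searched with minimap2 2.31.

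The genes, the lists and the tests were chosen with earlier results of these data known. Named genes were the 8, related receptor, kinase and arrestin genes, up to 4 genes of each list with a mean of at least 1 CPM and the largest additive change plus any past the size rule, and the 3 nearest genes in course; the other called genes of a list were named after their values were seen. Not every related gene is reported here. Alternatives changed the scaling, the filter, the prior count, the fold threshold, the test (DESeq2 1.42.0 Wald, robust empirical Bayes) and the length trend (spline with 5 degrees of freedom).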

Additional observations from a re-analysis of the deposited data

Results flagged for a closer look

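Slc18a2, the vesicular monoamine transporter gene, was the only gene of the receptor-related lists that met the size rule for a difference between the norepinephrine responses of the lines (shFAK minus shNC log2 difference -1.08, 99% counting interval -2.05 to -0.11). It had 38 counts in shFAK norepinephrine and 72 in shFAK vehicle, against 75 in shNC norepinephrine and 66 in shNC vehicle. Of all genes 0.785% met that rule, and with 1 library per group the difference has no replicate check.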

How the results depend on the processing

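With 1 library per group, every interval covers counting error only, and Adra2c, Adrb1 and Adra2a are limited by depth. No paired analysis was possible because the labels carry no replicate numbers and each group had 1 library. Leaving out a library was not run, since 3 libraries leave 0 residual degrees of freedom for 3 coefficients. Of the values for the 6 genes under other settings, 309 kept their side of the test's threshold or, for ratios with no test, stayed within the counting interval of the value reported; 4 moved, 3 lost their call and 1 tested value reversed; the cause was not tested. Of the 309, 10 had the other sign, all of ratios or differences whose interval included 0. These lay between -0.046 and 0.054 on the log2 scale under both settings. The DESeq2 Wald test called 1 of the 8 genes for the hairpin in place of 3 (Adra1b, adjusted p = 0.0690, and Grk6, adjusted p = 0.0550, were lost), and library size alone lost Grk6 (adjusted p = 0.0574). Over all settings the adjusted p ran from 1.74e-05 to 0.0690 for Adra1b, from 6.80e-15 to 4.34e-05 for Arrb1 and from 0.000745 to 0.0574 for Grk6. Without the filter on low counts, Adra2c was called, giving 4 genes for the hairpin term in place of 3, 1 for the norepinephrine term, 1 for norepinephrine over vehicle in shFAK and 1 for shFAK over shNC in norepinephrine, the last 3 each in place of 0. Adra2c had 23 counts in shFAK norepinephrine and at most 1 elsewhere, so all these calls rest on that library, which held the excess of low-count genes. Such counts depart from additivity, and the model gave that departure no weight, so its 2 Adra2c calls do not separate hairpin from norepinephrine. Without the filter the Grk5 hairpin change was -0.00196 in place of 0.03. At a 1.5-fold threshold Arrb1 was called in shFAK over shNC in norepinephrine (1 in place of 0). The 4 values that moved were those of Arrb1 with the length trend taken off, given above. Over all genes, the hairpin term called 2408 higher and 2003 lower, against 953 and 758 with the DESeq2 Wald test, 1492 higher with the length trend taken off and 1162 lower with library size alone. The norepinephrine term called 623 higher and 901 lower, against 28 and 84 with DESeq2, 302 and 341 with the trend taken off, and 306 higher with library size alone and 280 without the filter. The pairs' counts changed by more than 1.5 times with the 1.5-fold threshold, the 5 CPM filter or no filter: shFAK over shNC in norepinephrine had 323 higher and 78 lower, against 1001 and 389, 111 and 25, and 538 and 125; in vehicle 175 and 57, against 456 and 197, 69 and 17, and 94 lower without the filter; norepinephrine over vehicle in shFAK 86 and 22, against 157 and 53, 10 and 4, and 351 and 52; in shNC 45 and 61, against 193 and 266, 14 and 15, and 79 and 94; and the difference of responses 68 and 29, against 132 and 83, and 10 and 11. A prior count of 10 gave 36 lower in vehicle, 6 lower in shFAK, 23 higher and 39 lower in shNC, and 24 and 15 for the difference.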
